A study of Mus musculus with 10 samples.

Results

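A group of 6 genes of pericellular proteolysis and heparan sulfate cleavage were followed across mouse thyroid tumours: the plasminogen activators Plau and Plat, the urokinase receptor gene Plaur, the inhibitor genes Serpine2 and Serpinb2, and the heparanase gene Hpse. They were chosen by exact gene symbol, with the probe set of the highest mean over the 10 arrays kept for each gene. Of the 6 members 5 were matched, each by 1 probe set, out of 19938 genes tested; Serpine2 is not analysed here. RNA of 10 tumours was hybridised to Affymetrix whole-transcript arrays, with 1 array per tumour. The 5 anaplastic thyroid carcinomas (ATC) had the genotype TPOCreER; BrafV600E; p53 -/-. The 5 papillary thyroid carcinomas (PTC) had the genotype TPOCreER; BrafV600E, so the oncogenic Braf allele and the inducible Cre under a thyroid peroxidase promoter were shared by both groups. All mice were of a mixed C57BL/6;129SvJae strain, and tumour type could not be separated from p53 genotype. The tumours are labelled as biological replicates, but not as coming from separate mice, and the p-values measure only the spread among these 10 samples. All values are log2 probe set intensities, and differences are ATC minus PTC.

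Urokinase, the product of Plau, and tissue plasminogen activator, the product of Plat, are secreted serine proteases that cut plasminogen into plasmin, a protease that degrades fibrin and matrix proteins. The urokinase receptor, Plaur, is a lipid-anchored surface protein that concentrates urokinase at the cell surface, and serpins such as Serpinb2 (plasminogen activator inhibitor type 2) trap the activators in inactive complexes. Heparanase is an endoglycosidase that cleaves the heparan sulfate chains of proteoglycans in basement membranes and at the cell surface.

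The members lie on 5 different chromosomes: Plau on chromosome 14, Plaur on 7, Plat on 8, Serpinb2 on 1 and Hpse on 5 (RefSeq, assembly GRCm38.p6). The 250 bases before the transcription start are shown for Serpinb2 and Hpse, which rose in ATC, and for Plaur, which did not pass the test. The sequences are those of RefSeq, in which 3 of the 5 measured members matched, and read 5′ to 3′ on the strand of the gene. Capitals mark matches on either strand to the AP-1 motif TGANTCA, the ETS motif AGGAAG, the Sp1 motif GGGCGG and the TATA motif TATAAA.
Serpinb2: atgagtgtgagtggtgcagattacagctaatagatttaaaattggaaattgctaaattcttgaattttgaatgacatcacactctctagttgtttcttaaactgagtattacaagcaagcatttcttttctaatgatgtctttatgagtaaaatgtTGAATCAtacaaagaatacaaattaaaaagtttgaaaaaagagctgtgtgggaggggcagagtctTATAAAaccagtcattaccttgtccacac
Hpse: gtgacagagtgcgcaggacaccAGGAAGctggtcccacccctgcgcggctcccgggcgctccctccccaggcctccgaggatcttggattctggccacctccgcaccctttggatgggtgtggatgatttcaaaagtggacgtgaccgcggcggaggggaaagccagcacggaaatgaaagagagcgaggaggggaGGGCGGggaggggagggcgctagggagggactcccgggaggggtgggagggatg
Plaur: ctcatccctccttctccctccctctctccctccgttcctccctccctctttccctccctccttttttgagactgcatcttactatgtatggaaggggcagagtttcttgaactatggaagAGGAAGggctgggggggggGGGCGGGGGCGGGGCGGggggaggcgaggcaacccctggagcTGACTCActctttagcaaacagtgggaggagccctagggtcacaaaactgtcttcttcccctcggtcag
The Serpinb2 window (GRCm38.p6, chr1:107511173-107511422, plus strand) held 1 AP-1 match that began 94 bases before the start and 1 TATA match that began 29 bases before it. The table gives a further Serpinb2 start whose window overlaps this one and holds the same matches. The Plaur window (chr7:24462233-24462482, plus strand) held 1 AP-1 match beginning 69 bases before the start, 1 ETS match, beginning 130 bases before it, and 3 Sp1 matches in a row, beginning 111, 105 and 100 bases before it, the last pair of which share 1 base. The Hpse window (chr5:100719717-100719966, minus strand) held 1 ETS match, beginning 228 bases before the start, and 1 Sp1 match, beginning 54 bases before it. Over the same 250 bases of all 32851 promoters in the table, 6.7% held the AP-1 motif, 29.5% the ETS motif, 32.7% the Sp1 motif and 12.4% the TATA motif. These matches describe only the letters of the windows, and binding to them was not examined.

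The arrays had similar distributions, with medians of 7.25 to 7.34, and ATC replicates 5 and 3 had the lowest array weights (0.38 and 0.56). Some tumour pieces differed in markers of adjacent tissue. The mean of the parathyroid markers was 9.44 in ATC replicate 2 and 5.98 to 7.16 in the other ATC tumours, and 10.48 and 10.12 in PTC replicates 1 and 4 and 6.17 to 8.67 in the other PTC tumours. The mean of the skeletal muscle markers was 7.03 to 8.39 in ATC and 6.81 to 9.05 in PTC. With the parathyroid mean as a covariate the differences were 1.58 for Plau, 2.62 for Serpinb2 and 0.99 for Hpse, and with the muscle mean 1.42, 2.31 and 1.19, and all passed. Without any 1 array they also passed, at 1.25 to 1.57, 1.81 to 2.31 and 1.00 to 1.36.

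Of the 5 measured members, Serpinb2, Plau and Hpse rose in ATC, none fell, and Plaur and Plat did not pass (limma, Benjamini-Hochberg adjusted p under 0.05 over all genes). Over all genes, 11.5% passed as higher and 9.72% as lower, together 21.2%. For the 3 members that passed, the lowest ATC value was above the highest PTC value, as it was for 9.13% of all genes. The median difference of the 5 members was 1.19, against −0.018 over all genes.

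**Figure D1:**
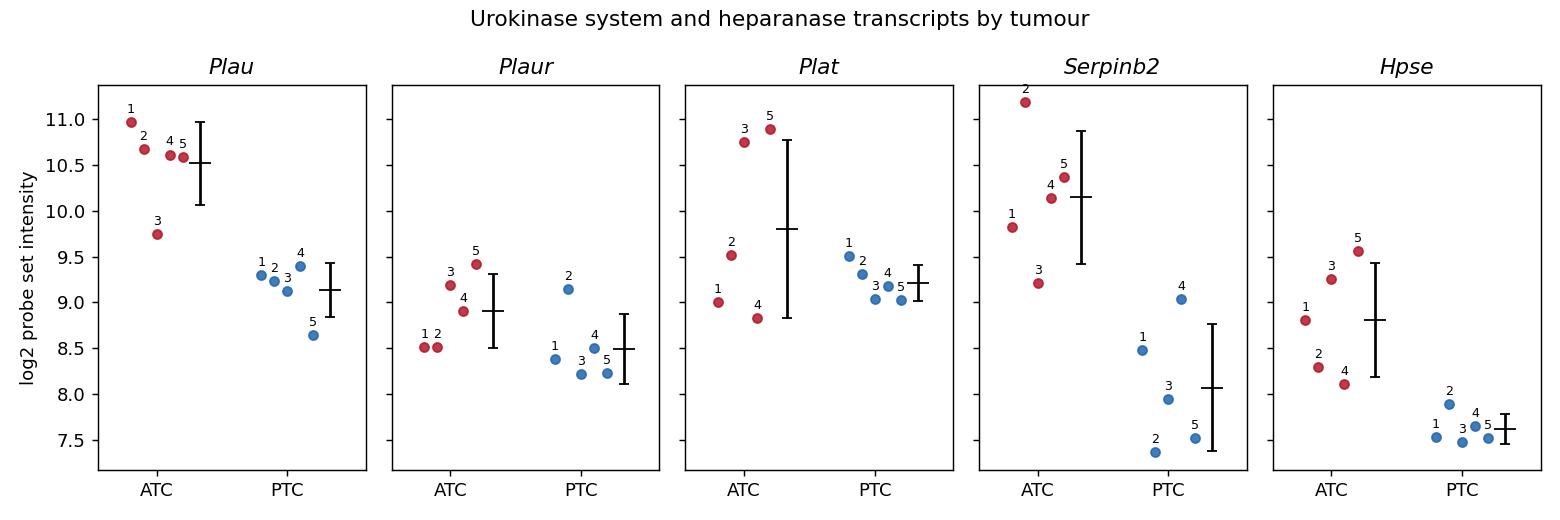
Log2 probe set intensity (vertical axis) of the 5 measured members in each tumour, with ATC in red and PTC in blue; numbers are replicate numbers, and bars give the mean ± SD of 5 tumours. The groups do not overlap for Plau, Serpinb2 and Hpse, and ATC replicates 3 and 5 stand above the other ATC tumours for Plat.

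Plau, the urokinase gene (probe set 10413047), was at 10.96, 10.68, 9.75, 10.61 and 10.59 in ATC replicates 1 to 5 and at 9.30, 9.24, 9.12, 9.39 and 8.64 in PTC replicates 1 to 5. The lowest ATC tumour, replicate 3, was still above the highest PTC tumour. The mean was 10.52 ± 0.46 in ATC and 9.14 ± 0.29 in PTC (SD, n = 5 each). The difference of 1.38 (95% interval 0.92 to 1.84) is a 2.60-fold rise, with an adjusted p of 0.00109 (limma).

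Plaur, the receptor gene (probe set 10550906), was at 8.51, 8.51, 9.19, 8.90 and 9.42 in ATC replicates 1 to 5, and at 8.38, 9.15, 8.22, 8.51 and 8.23 in PTC replicates 1 to 5. The groups overlapped, since PTC replicate 2 was above 3 of the ATC tumours. The difference was 0.41 (95% interval −0.061 to 0.89, adjusted p = 0.214, limma), so neither no change nor a 1.85-fold rise lay outside the interval. Without PTC replicate 2 it was 0.58 (adjusted p = 0.0568).

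Plat, the gene of tissue plasminogen activator (probe set 10570855), was at 9.01, 9.52, 10.74, 8.83 and 10.89 in ATC replicates 1 to 5 and at 9.50, 9.31, 9.04, 9.17 and 9.03 in PTC replicates 1 to 5. ATC replicates 3 and 5 were above every PTC tumour by more than 1 log2 unit, whereas ATC replicates 1 and 4 were below every PTC tumour. The SD was 0.97 in ATC and 0.20 in PTC. The difference of 0.59 (95% interval −0.24 to 1.41) did not pass (adjusted p = 0.318, limma), and it was 0.31 without ATC replicate 5 (adjusted p = 0.583).

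Serpinb2 (probe set 10349157), the inhibitor of urokinase and tissue plasminogen activator that macrophages and keratinocytes make under stress, had the largest difference of the members. It was at 9.82, 11.18, 9.21, 10.14 and 10.37 in ATC replicates 1 to 5 and at 8.48, 7.37, 7.95, 9.04 and 7.52 in PTC replicates 1 to 5. The groups did not overlap, although ATC replicate 3, the lowest of its group, was close to PTC replicate 4, the highest of its own. The mean was 10.14 ± 0.72 in ATC and 8.07 ± 0.69 in PTC (SD, n = 5 each). The rise was 4.20-fold, with a 95% interval of 2.36-fold to 7.49-fold (difference 2.07, adjusted p = 0.00302, limma).

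Hpse (probe set 10531737) was at 8.81, 8.29, 9.26, 8.11 and 9.56 in ATC replicates 1 to 5 and at 7.53, 7.89, 7.48, 7.65 and 7.53 in PTC replicates 1 to 5. Every ATC tumour was above every PTC tumour, and the ATC tumours were spread more widely, with an SD of 0.62 in ATC and 0.17 in PTC. The difference of 1.19 (95% interval 0.65 to 1.73) is a 2.28-fold rise (adjusted p = 0.00567, limma).

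The members did not rank the ATC tumours alike. ATC replicates 3 and 5 had the highest levels of Plat, Plaur and Hpse among the 5 ATC tumours. Their arrays also had the lowest weights of the 10 (0.56 and 0.38). ATC replicate 3 had the lowest level of Plau and of Serpinb2, 0.082 below and 0.11 above the mean over all 10 tumours. ATC replicate 2 had the highest Serpinb2, 2.07 above the mean over all tumours, but lay 0.016 above that mean for Plat and 0.079 above it for Hpse. ATC replicate 5 was above the mean for all 5 members, by 0.72 to 1.39. In PTC, replicate 4 had the highest Plau and Serpinb2 and replicate 2 the highest Plaur and Hpse. A wider spread in ATC than in PTC was measured for 68.6% of all genes.

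**Figure D2:**
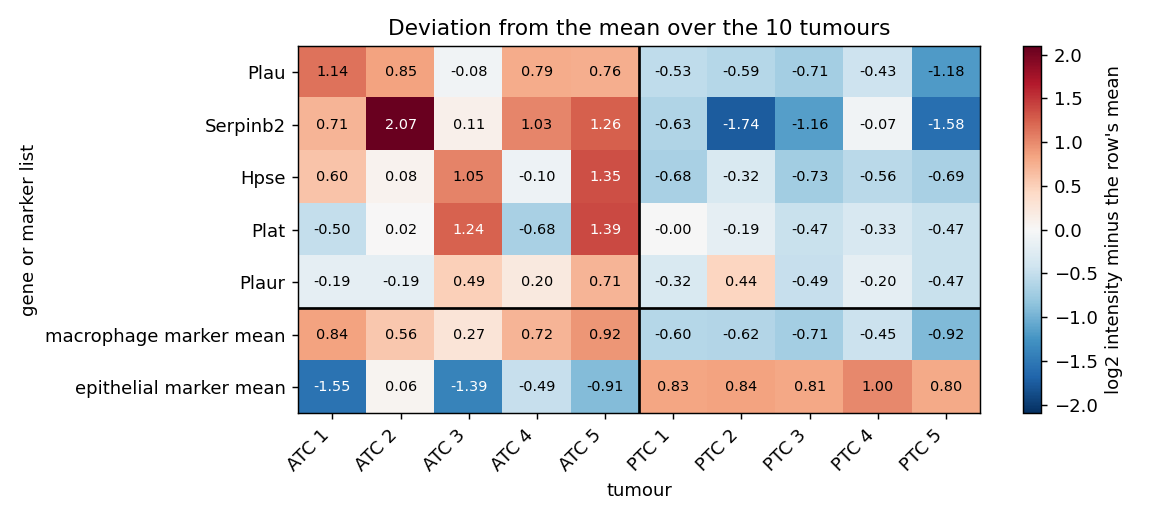
Log2 intensity minus the mean over the 10 tumours (colour, with the value in each cell) for the 5 measured members and for the means of the macrophage and epithelial marker lists, with ATC tumours left of PTC tumours. Plau and Serpinb2 are lowest in ATC replicate 3 among the ATC tumours, where Plat and Hpse are 1.24 and 1.05 above their means.

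These are whole tumour pieces, in which more transcript per cell and more cells of an expressing type cannot be told apart. Macrophages express Plau, Plaur, Serpinb2 and Hpse, and 12 of 14 macrophage markers rose in ATC, among them Cd163 (3.47), Msr1 (1.79) and Itgam (1.74), with none lower. The mean of the list was 10.68 to 11.33 in ATC and 9.49 to 9.96 in PTC, with no overlap. In ATC replicates 1 to 5 the macrophage mean was 11.25, 10.97, 10.68, 11.13 and 11.33, and in PTC replicates 1 to 5 it was 9.81, 9.79, 9.69, 9.96 and 9.49. None of the 3 members followed this order in full. Single markers of the list departed from it as well. Msr1 was lowest, among the ATC tumours, in replicate 1 (11.63) and Cd163 in replicate 2 (9.58). Among the ATC tumours replicate 3, with the lowest macrophage mean, had the lowest Plau and Serpinb2 but the second highest Hpse. ATC replicate 5, with the highest macrophage mean, had the highest Hpse, the second highest Serpinb2 and the fourth highest Plau, while Plau was highest in ATC replicate 1 and Serpinb2 in ATC replicate 2, which had the second lowest macrophage mean. In PTC, replicate 4 had the highest macrophage mean, Plau and Serpinb2, whereas Hpse was highest in replicate 2. PTC replicate 5, with the lowest macrophage mean, had the lowest Plau, but Serpinb2 was lowest in replicate 2 and Hpse in replicate 3. The part of macrophages in the 3 rises was not tested.

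Markers of other cell types moved as follows. The counts here and for the lists below stand beside 11.5% of all genes called higher and 9.72% called lower. Of 8 epithelial markers 6 were lower and none higher, led by Krt7 (−3.14), Krt19 (−2.92) and Epcam (−2.73), and the list mean was 8.16 to 9.77 in ATC and 10.51 to 10.71 in PTC. Of 11 thyroid follicular markers 3 were lower, namely Iyd (−2.33), Tshr (−1.67) and Slc26a4 (−0.69). Of 10 fibroblast markers 4 were lower, led by Dpt (−2.35), Lum (−2.07) and Dcn (−1.35). The other 6 did not pass and lay on both sides of 0, from Col3a1 at −0.30 to Pdgfra at 1.17 (adjusted p = 0.0848, limma). Of 5 mast cell markers 3 were higher, namely Cpa3 (1.96), Fcer1a (0.93) and Tpsb2 (0.25). Both Fcer1a means (5.93 in ATC and 5.00 in PTC) lie below the lower quartile of every array (6.02 to 6.19). Of 10 endothelial markers 2 were lower, Tek (−0.67) and Pecam1 (−0.40), and of 12 neutrophil markers 1 was lower, Ltf (−1.07). None of the 10 skeletal muscle, 3 parathyroid and 4 platelet markers passed. The calls of Iyd, Tshr, Slc26a4, Cpa3, Tpsb2, Pecam1 and Ltf each ended in 5 to 9 of the 10 fits that left out 1 array. The call of Tek ended with the parathyroid covariate (−0.62, adjusted p = 0.0631), under which no endothelial marker passed. For the thyroid list 0 genes passed without ATC replicate 1 or 3 or PTC replicate 4 or 5, and 1 without ATC replicate 5 or PTC replicate 1 or 3. For the mast cell list 1 passed without any array but ATC replicate 3 or 5. For the endothelial list 4 passed without ATC replicate 2, and 1 without ATC replicate 1 or 3 or PTC replicate 1, 3, 4 or 5. For the neutrophil list 0 passed without ATC replicate 3 or 5 or PTC replicate 2 or 3, 2 without ATC replicate 1 and 3 without PTC replicate 5. The part of these cell types in the members' differences was not tested.

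Around the activators, the genes that bind, clear or inhibit them moved in both directions. Of 15 measured genes of the plasminogen system other than the members, 4 rose, 2 fell and 9 did not pass, with a median difference of −0.071. Serpini1, which encodes neuroserpin, an inhibitor of tissue plasminogen activator, was at 7.77, 7.94, 8.35, 9.57 and 9.81 in ATC replicates 1 to 5 and between 6.99 and 7.21 in PTC, a 2.98-fold rise (adjusted p = 0.00959, limma). Lrp1, the endocytic receptor that clears urokinase and its serpin complexes, rose 2.07-fold (10.44 ± 0.34 in ATC and 9.40 ± 0.21 in PTC, adjusted p = 0.00104, limma). Mrc2, a collagen receptor that associates with the urokinase receptor, rose by 0.51 (adjusted p = 0.0269, limma). Plg, the plasminogen gene itself, was at 5.61 ± 0.13 in ATC and 5.60 ± 0.069 in PTC, a difference of 0.0090 with an adjusted p of 0.952 (limma).

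The subunits of the annexin A2 complex, which binds plasminogen at the cell surface, differed in opposite directions. S100a10 rose 1.86-fold (12.18 ± 0.19 in ATC and 11.28 ± 0.29 in PTC, adjusted p = 0.00122, limma). Anxa2 was 1.26-fold lower (11.48 ± 0.24 in ATC and 11.81 ± 0.048 in PTC, adjusted p = 0.0434, limma), and its call ended without any 1 array but ATC replicate 3 (adjusted p 0.0512 to 0.0948). Igf2r, a receptor for which plasminogen and the urokinase receptor are known ligands, fell by 0.39 (adjusted p = 0.00753, limma).

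Of 8 measured surface partners of the urokinase receptor, 3 rose, none fell and 5 did not pass, with a median of −0.056. Itgam, the alpha chain of the macrophage integrin Mac-1, rose by 1.74, and Itga5, the alpha chain of the fibronectin receptor, rose by 1.24 (8.73 to 10.09 in ATC and 7.88 to 8.18 in PTC). The beta chain genes Itgb2 and Itgb1 did not pass, at −0.049 and −0.12 (adjusted p = 0.854 and 0.329, limma). Itgb3 rose by 0.66 (adjusted p = 0.0439), a call that ended without any of the 5 PTC arrays or ATC replicate 3 (adjusted p 0.0577 to 0.0972). Of 10 plasmin substrates, 1 rose, 1 fell and 8 did not pass, with a median of 0.18. The share of all genes that passed in either direction was 21.2%. The fibronectin gene Fn1 rose by 0.55 (adjusted p = 0.00162, limma). Fgg, a fibrinogen chain, fell by 0.50 (adjusted p = 0.0173, limma), a call that ended with the parathyroid covariate (−0.37, adjusted p = 0.079). Both Fgg means (5.445 in ATC and 5.947 in PTC) lie below the lower quartile of every array (6.02 to 6.19). They may be near background, which is not given.

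The relatives of Serpinb2 did not share its rise. Of the other 19 measured clade B and E serpins, none rose, 5 fell and 14 did not pass, with a median of −0.15. Over all genes 11.5% passed as higher and 9.72% as lower. Serpinb6b fell 3.83-fold (8.23 ± 0.74 in ATC and 10.17 ± 0.31 in PTC, adjusted p = 0.00131), and Serpinb9, the inhibitor of granzyme B, fell 3.63-fold (6.99 ± 0.55 in ATC and 8.85 ± 0.16 in PTC, adjusted p = 0.000321). Clade B serpins have close paralogs in the mouse, and their probe sets were not checked for shared signal. Serpinb2 lies in a row of clade B genes on chromosome 1, of which 10 others were measured. Of these 10, none rose, 2 fell and 9 had a negative difference. Their median difference was −0.13, against −0.018 over all genes. Several were dim, with group means of 3.5 to 4.1 for Serpinb3a, Serpinb3c, Serpinb3d and Serpinb7 and 4.8 to 5.4 for Serpinb12 and Serpinb13. These means, and the ATC means of Serpinb5, Serpinb10 and Serpinb11, lie below the lower quartile of every array (6.02 to 6.19). They may be near background, which is not given. The fallers were Serpinb5 (maspin), with a difference of −1.60 (5.25 ± 0.42 in ATC and 6.85 ± 0.10 in PTC), and Serpinb11, with −1.80 (4.93 ± 0.83 in ATC and 6.73 ± 0.64 in PTC). The measured genes on either side of Serpinb2 differed by −0.18 (Serpinb7, adjusted p = 0.557) and −0.51 (Serpinb10, adjusted p = 0.284), against 2.07 for Serpinb2.

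**Figure D3:**
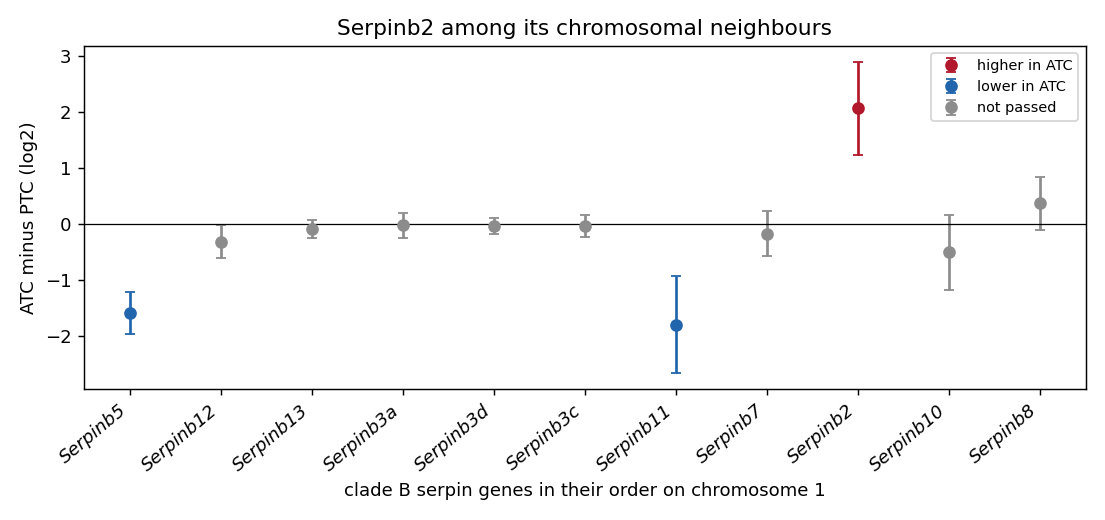
Difference ATC minus PTC (log2, vertical axis) with 95% interval for the 11 measured clade B serpin genes of chromosome 1, in chromosomal order, coloured by the call. Serpinb2 is the only one called higher, at 2.07, while Serpinb5 and Serpinb11 are called lower at −1.60 and −1.80.

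The chromosomal neighbours of the other members were mixed. Their counts stand beside 11.5% of all genes called higher and 9.72% called lower. Of the 6 measured genes nearest to Plau, 2 rose: Vcl, the vinculin gene, by 0.56, and Ndst2, a heparan sulfate sulfotransferase gene, by 0.46, both below the 1.38 of Plau. Of the 6 nearest to Hpse, 3 rose by 0.35 to 0.41, below the 1.19 of Hpse. Of the 6 nearest to Plaur, 1 rose, and of the 6 nearest to Plat, 1 fell.

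On the side of heparanase, its substrates and their modifying enzymes changed in part. Of 13 heparan sulfate core proteins 5 rose, 3 fell and 5 did not pass, with a median of 0.038. Sdc1, the syndecan of epithelia and plasma cells, fell 2.68-fold (7.98 ± 0.53 in ATC and 9.40 ± 0.34 in PTC, adjusted p = 0.00198, limma). Another syndecan gene, Sdc4, fell by 0.39 (adjusted p = 0.0406, limma). Sdc2 and Sdc3 rose by 0.55 and 0.48 (adjusted p = 0.00272 and 0.0303, limma), and the glypican gene Gpc1 rose by 0.65. With 1 array left out, 6 to 9 genes of this list passed, against 8 with all arrays. The basement membrane proteoglycans moved in both directions: Agrn, the agrin gene, fell by 0.51 (7.21 ± 0.087 in ATC and 7.72 ± 0.15 in PTC, adjusted p = 0.0016), while Hspg2 and Col18a1, which encode perlecan and collagen XVIII, rose by 0.51 and 0.48.

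Among 19 genes of heparan sulfate synthesis and sulfation 7 rose, 3 fell and 9 did not pass, with a median of 0.21. Hs2st1, which adds sulfate at the 2-O position of uronic acid, rose 2.14-fold (9.03 ± 0.24 in ATC and 7.93 ± 0.14 in PTC, adjusted p = 0.000192, limma). The N-sulfotransferase gene Ndst3 rose by 1.10 (adjusted p = 0.00418) and the chain polymerase gene Ext1 by 0.53. Both extracellular sulfatases that remove sulfate from finished chains fell: Sulf2 by 1.23 (9.13 ± 0.55 in ATC and 10.36 ± 0.35 in PTC, adjusted p = 0.00551) and Sulf1 by 1.07 (adjusted p = 0.000769).

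Of 8 other genes of heparan sulfate breakdown 3 rose, none fell and 5 did not pass, with a median of −0.027. Ctsl, the lysosomal protease known to process pro-heparanase into its active form, rose 1.58-fold (12.42 ± 0.25 in ATC and 11.76 ± 0.15 in PTC, adjusted p = 0.00295, limma). Hpse2, the heparanase homologue without heparan sulfate cleaving activity, was at 5.55 ± 0.13 in ATC and 5.60 ± 0.092 in PTC (adjusted p = 0.708). Hgsnat and Gusb rose by 0.62 and 0.34, and the call of each ended in 6 of the 10 fits that left out 1 array: without PTC replicates 1 to 4 in turn and ATC replicate 5 for both, ATC replicate 1 for Hgsnat and ATC replicate 2 for Gusb (adjusted p 0.0536 to 0.0747). Without PTC replicate 1, 2, 3 or 4 or ATC replicate 5, 1 gene of this list passed.

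**Figure D4:**
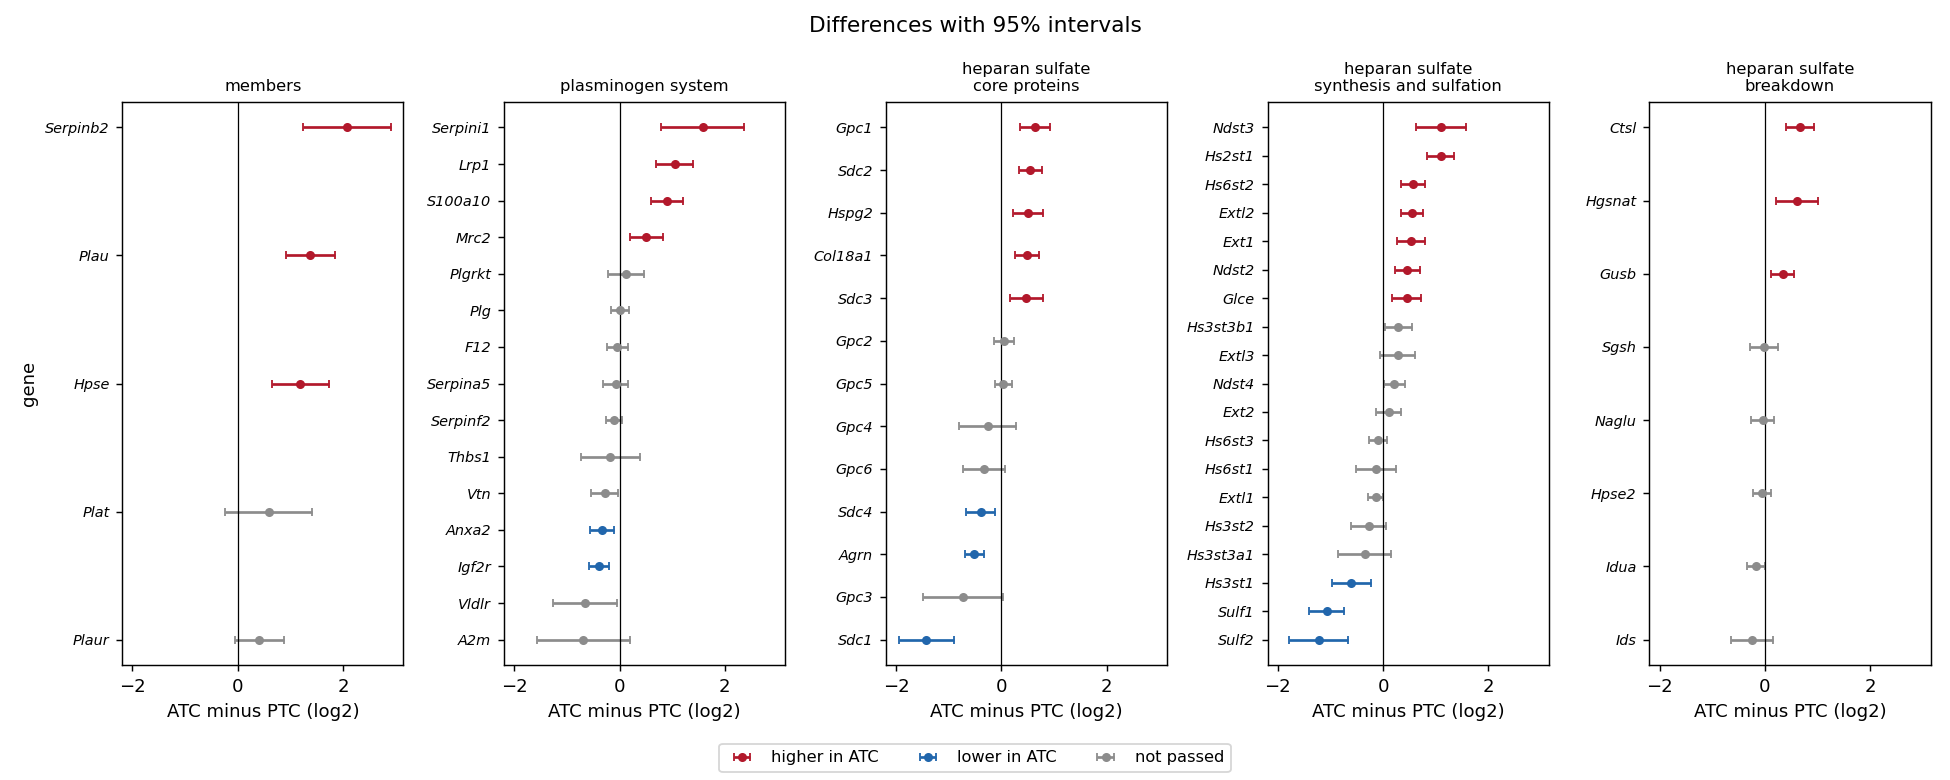
Difference ATC minus PTC (log2, horizontal axis) with 95% interval for the 5 measured members and for the measured genes of 4 lists around them, sorted by size within a panel and coloured by the call. The members all lie above 0, while each of the 4 lists holds genes on both sides, from Sdc1 at −1.42 to Serpini1 at 1.58.

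The transcription factors of the AP-1 and ETS families, which are known to act on the urokinase and urokinase receptor promoters, moved in both directions. Of 12 measured genes 3 rose, 1 fell and 8 did not pass, with a median of 0.033. Fosl1, the Fra-1 gene, rose 2.98-fold (8.18 to 9.45 in ATC and 7.12 to 7.35 in PTC, adjusted p = 0.00085), and Jun rose by 0.70 (adjusted p = 0.0101). Fos fell by 0.54 (adjusted p = 0.00589).

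The genes whose profiles over the 10 tumours were most like those of the members differed between members. Likeness was measured as the root mean square difference between the log2 values of 2 genes, each centred on its own mean, among 1620 genes with an SD of at least 0.5. It includes the difference between the groups and is not scaled for a gene's own spread. The SD over the 10 tumours was 1.28 for Serpinb2, 0.81 for Plau and 0.76 for Hpse, so distances cannot be compared between members. For Plau the nearest were C3ar1, the receptor of the complement fragment C3a, at 0.12, Fyb at 0.17, the Fc receptor gene Fcgr1 at 0.20, Hpgds at 0.20 and Prdm8 at 0.22. For Serpinb2 they were the chemokine gene Ccl7 at 0.49, Eno3 at 0.51, Fcgr1 at 0.54, Itgam at 0.57 and the macrophage growth factor gene Csf1 at 0.58. For Hpse they were the filamin gene Flnc at 0.19, Gpsm2 at 0.20, Eif5a at 0.23, Stom at 0.25 and Akr1b8 at 0.25. Fcgr1 was among the nearest 5 of both Plau and Serpinb2, and none was shared with Hpse. Of these nearest genes, Fcgr1 and Itgam are on the macrophage marker list and the others are not. The Eif5a call (difference 0.80, adjusted p = 0.0252, limma) ended when ATC replicate 3 or PTC replicate 1 or 3 was left out (adjusted p 0.0559 to 0.0604). With the mean of the Eif5a probe sets the difference was smaller, at 0.48, and still passed.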

How the data were processed

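Biotin-labelled RNA of 5 ATC and 5 PTC tumours was put on Affymetrix arrays, as the labels' protocols state. The authors deposited 1 table with values of 35556 probe sets that were read as log2 intensities from their range; neither detection above background nor the normalization is stated in the sources. Tools listed in the submitters' processing notes, with no role given, are Affymetrix Power Tools and limma. By the platform annotation 21789 probe sets had 1 symbol, 1621 had several and 12146 had none here. The probe set with the highest mean represented each of 19938 genes. The groups were compared in R 4.3.3 by limma 3.58.1 (lmFit, then eBayes with no trend and no covariate), with Benjamini-Hochberg adjustment over all genes and a threshold of 0.05. Alternatives took up the replicate number, probe set choice, dim genes, scaling, variance model, array weights, muscle or parathyroid markers as covariates, and left-out arrays. The fit was tested on simulated data. The number of arrays limits the precision.

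The members, 8 pathway lists and 10 marker lists were chosen with earlier results of these data known; lists are described by counts and medians. The naming rule took the members, the 3 largest called differences of each list, 6 measured direct partners and the 5 nearest profiles of each called member. Other list genes, the chromosomal neighbours and the promoter motifs were chosen after values were seen. Gene names, order and chromosomes came from RefSeq. The level of the deleted gene is not analysed here. Python 3.11.15, pandas 2.3.3, numpy 2.4.6 and matplotlib 3.10.9 served for promoters, tables and figures.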

Additional observations from a re-analysis of the deposited data

Results flagged for a closer look

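Among 61 named genes, each examined within ATC and within PTC, 8 of 122 groups held a tumour whose gap to its nearest neighbour was above the 95% critical value of Dixon's test for 5 samples; chance flags about 1 in 20 groups. None of the 8 concerned a member. In ATC, Itgb3 was at 9.4 in replicate 5, against 8.18 to 8.44 in the other ATC tumours. Jun was at 8.48 in ATC replicate 4, against 9.29 to 9.47. ATC replicate 2 stood high for 3 genes: Serpinb11 at 6.39 against 4.28 to 4.72, Ltf at 7.64 against 6.18 to 6.46, and Tek at 8.38 against 7.73 to 7.89. In PTC, replicate 5 stood high for Hgsnat, at 9.91 against 9.25 to 9.35, and low for Msr1, at 9.07 against 10.16 to 10.39. Csf1 was at 8.09 in PTC replicate 1, against 7.74 to 7.77 in the other PTC tumours.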

How the results depend on the processing

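Plau, Serpinb2 and Hpse kept their rise and their call, and Plaur and Plat stayed above 0 without passing, under each of the 22 alternatives, 10 of which left out 1 array. With 1 array left out the differences ran from 0.28 to 0.58 for Plaur and from 0.31 to 0.83 for Plat, and 3253 to 4128 genes passed, against 4234 with all arrays. Under the other 12 settings they ran from 1.21 to 1.58 for Plau, 1.68 to 2.62 for Serpinb2, 0.99 to 1.30 for Hpse, 0.26 to 0.45 for Plaur and 0.37 to 0.66 for Plat, with adjusted p-values of at most 0.0298 for the first 3 and at least 0.166 for the others. The smallest count, 2941 genes, came with the parathyroid covariate. Replicate numbers did not pair the tumours: deviations of same-numbered tumours correlated at −0.086 to 0.12, and 1 of 5 ATC tumours correlated best with its own number. With the replicate block 3762 genes passed, the members' differences stayed the same by construction, and the adjusted p was 0.00329 for Plau, 0.0126 for Serpinb2 and 0.0183 for Hpse. Of 56 other named genes 40 kept direction and call throughout. Settings other than left-out arrays ended calls of Anxa2, Itgb3, Fgg, Hgsnat, Gusb, Eif5a, Iyd, Tshr, Slc26a4, Cpa3, Tpsb2, Tek, Pecam1 and Ltf; the block ended that of Tek (adjusted p = 0.0507), and under it no endothelial marker passed. Plg, at 0.009 with all arrays, was at −0.013 with the muscle covariate and −0.003 without ATC replicate 2 and PTC replicate 5; leaving out 1 array gave −0.015 to 0.061, with 5 values below 0. Hpse2 was at 0.021 without ATC replicate 2 and PTC replicate 5. Dim genes such as Plg and Hpse2 may lie near background, which the table does not give.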
